A study of Mus musculus with 12 samples.

Results

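Bpifa1, a gene of secretory airway epithelium, was followed through mRNA sequencing of mouse aorta. A rule named Bpifa1 and 9 further airway genes (Bpifb1, Scgb1a1, Scgb3a1, Scgb3a2, Reg3g, Cyp2f2, Muc5b, Foxj1 and Sftpc). Of these 10 symbols, 1, Bpifa1, had a value among the 3532 gene symbols used, and the other 9 were not analysed here. Bpifa1 was picked because of its level in these same libraries, so its values are a description, and nothing is read from its own row of the fit over all genes.

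The series held 12 samples in 4 groups of 3. HSAPN aortas had an APPL1 knockdown and a high-fat diet, HAPN aortas had a WT genotype and a high-fat diet, HFD aortas had a WT genotype and a high-fat diet, and WT aortas had a WT genotype and a normal diet. The high-fat diet drew 60% of its kcal from fat, and feeding lasted 12 weeks. What sets HAPN apart from HFD, how APPL1 was knocked down and in which cells, and the strain and age of the mice are not stated in the labels, and the Appl1 transcript was not analysed here. HFD replicates 1 and 2 had identical files and were counted as 1 library, called HFD 1 below, which left 11 distinct libraries with 2 in HFD and 3 in each other group. The labels do not say whether replicates were separate animals or pools, so the spread between them may be partly technical.

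BPIFA1, also called SPLUNC1, is a small secreted protein of the bactericidal/permeability-increasing (BPI) fold family. It is made by surface epithelium and glands of the nose, trachea and large airways, where it coats the mucosa, lowers surface tension and takes part in defence against bacteria and in the control of sodium uptake through epithelial channels. Vessel wall cells (smooth muscle, endothelium and adventitial fibroblasts) are not where it is usually described. The mouse gene, ENSMUSG00000027483.7, lies on the + strand at chr2:154142880-154149219 (GRCm38), in a cluster of BPI fold genes, and its 1 coding transcript has 9 exons. The exons of all 3 annotated transcripts, coding and not, together span 1545 bases, the length used to turn a value back into reads.

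The promoters of Bpifa1 and of Ltf and Adh7, which are 2 of the genes whose levels ran most like it (given further on) and are themselves known from mucosal epithelium, are shown as the 250 bases before the RefSeq start site on the + strand of GRCm38.p6, 5′ to 3′, at chr2:154142630-154142879, chr9:111019042-111019291 and chr3:138217523-138217772. Capitals mark matches, on either strand, to TATAAA (the TATA box), TATTTAC or TGTTTAC (forkhead factors), TGACTCA (AP-1) or TTCNNNGAA (STAT factors).
Bpifa1: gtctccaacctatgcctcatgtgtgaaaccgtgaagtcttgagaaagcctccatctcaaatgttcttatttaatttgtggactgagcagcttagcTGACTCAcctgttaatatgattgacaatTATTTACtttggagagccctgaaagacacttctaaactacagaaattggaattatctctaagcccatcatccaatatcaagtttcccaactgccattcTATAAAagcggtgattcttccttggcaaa
Ltf: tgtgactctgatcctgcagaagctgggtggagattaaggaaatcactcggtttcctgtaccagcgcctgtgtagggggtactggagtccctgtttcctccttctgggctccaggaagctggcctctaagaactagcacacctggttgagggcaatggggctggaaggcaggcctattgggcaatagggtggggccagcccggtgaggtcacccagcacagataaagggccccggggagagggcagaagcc
Adh7: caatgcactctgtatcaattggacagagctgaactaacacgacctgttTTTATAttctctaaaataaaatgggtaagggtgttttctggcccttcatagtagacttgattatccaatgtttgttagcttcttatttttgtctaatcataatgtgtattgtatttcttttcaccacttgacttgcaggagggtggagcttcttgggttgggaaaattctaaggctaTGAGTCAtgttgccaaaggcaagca

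In the Bpifa1 promoter TATAAA began 29 bases before the start site, TATTTAC 127 bases before it and TGACTCA 155 bases before it, all on the + strand and none overlapping. In the Adh7 promoter TATAAA and TGACTCA each matched once on the - strand, and in the Ltf promoter none of the motifs matched. Of 32851 mouse promoters of this length, 12.4% held TATAAA, 2.7% TATTTAC, 3.2% TGTTTAC, 4.5% TGACTCA and 7.0% TTCNNNGAA. The motifs were chosen after the Bpifa1 sequence had been read, and a match is a run of letters, not a shown binding site.

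Values are FPKM, read counts scaled to exon length and to library total, which puts genes of different length on 1 scale. Bpifa1 was measured at 27.9, 35.2 and 1149 FPKM in HSAPN libraries 1, 2 and 3. It was at 840, 3848 and 2.81 FPKM in HAPN libraries 1, 2 and 3. HSAPN thus had 1 high library and HAPN 1 low library, and their levels overlapped. Bpifa1 was at 6438 FPKM in HFD 1 and at 5.84 FPKM in HFD 3. It was at 238, 10735 and 2771 FPKM in WT libraries 1, 2 and 3. Each group except WT therefore held a library above 1000 FPKM and a library below 100 FPKM, and in WT the lowest library stood at 238 FPKM. The highest library was 3826-fold above the lowest.

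**Figure D1:**
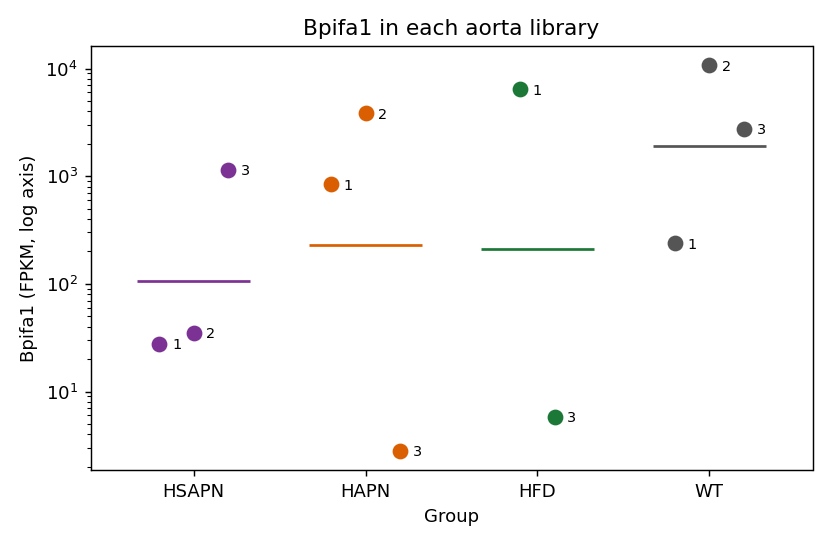
Bpifa1 in FPKM on a log axis for the 11 distinct aorta libraries, 1 point per library with its replicate number, by group, with a line at the group's mean of log2(FPKM + 1) turned back to FPKM. The points of HAPN and of HFD run from below 10 FPKM to above 1000 FPKM, and the points of all 4 groups overlap.

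In reads, the range ran from 68 in HAPN 3 and 150 in HFD 3 to about 297000 in WT 2. The exact Poisson 95% interval was 2.18 to 3.56 FPKM in HAPN 3, 4.94 to 6.85 FPKM in HFD 3, 26.0 to 30.0 FPKM in HSAPN 1 and 33.03 to 37.54 FPKM in HSAPN 2. These intervals cover counting error only and may be too narrow, since PCR copies are not independent molecules. They do not overlap one another, so the lowest 4 libraries differed by more than the counting error of independent reads. In WT 2 Bpifa1 took 1.66% of all reads and had rank 3 by FPKM among the genes of the table, and in HFD 1 it took 0.995% and had rank 5. In HAPN 2 it had rank 4, at 0.594% of reads. Its rank was 12 in HAPN 1 and 13 in HSAPN 3, but 587 in HFD 3 and 909 in HAPN 3. Bpifa1 thus ranged from a leading transcript to a minor one. It was among the 100 genes of highest FPKM in 7 of the 11 libraries.

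Group means followed the highest library of each group. Bpifa1 averaged 404 ± 645 FPKM in HSAPN (SD, n = 3), 1564 ± 2022 FPKM in HAPN (SD, n = 3), 3222 ± 4548 FPKM in HFD (SD, n = 2) and 4581 ± 5477 FPKM in WT (SD, n = 3). Every SD exceeded its mean. The highest library was 41.2-fold above the lowest in HSAPN, 1371-fold in HAPN, 1103-fold in HFD and 45.1-fold in WT. The group means in FPKM thus order as WT, HFD, HAPN and HSAPN from high to low, and no neighbours in that order differ beyond their spread. On the log2(FPKM + 1) scale, the mean of HAPN (7.85) stood slightly above that of HFD (7.71). From highest to lowest, the libraries ran WT 2, HFD 1, HAPN 2, WT 3, HSAPN 3, HAPN 1, WT 1, HSAPN 2, HSAPN 1, HFD 3 and HAPN 3. The widest step in that order, 6.76-fold, lay between WT 1 and HSAPN 2.

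Compared with the other genes, Bpifa1 had the widest spread between libraries of 1 group. Its SD within groups was 4.42 on the log2(FPKM + 1) scale, the highest of the 1659 tested genes (1 FPKM or more in 3 or more libraries). The median of these genes was 0.347, their 95th percentile 1.07 and the second highest value 3.11, for Cfd. After Cfd came Tff2 at 2.88, the fat gene Car3 at 2.75, Ltf at 2.73, Myl4 at 2.67 and Krt15 at 2.50. Of the spread of Bpifa1 over the 11 libraries, 82.5% lay within groups, against a median of 57.3% over these genes. Bpifa1 was chosen for its levels in these libraries, so its rank describes the choice and is not tested.

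**Figure D2:**
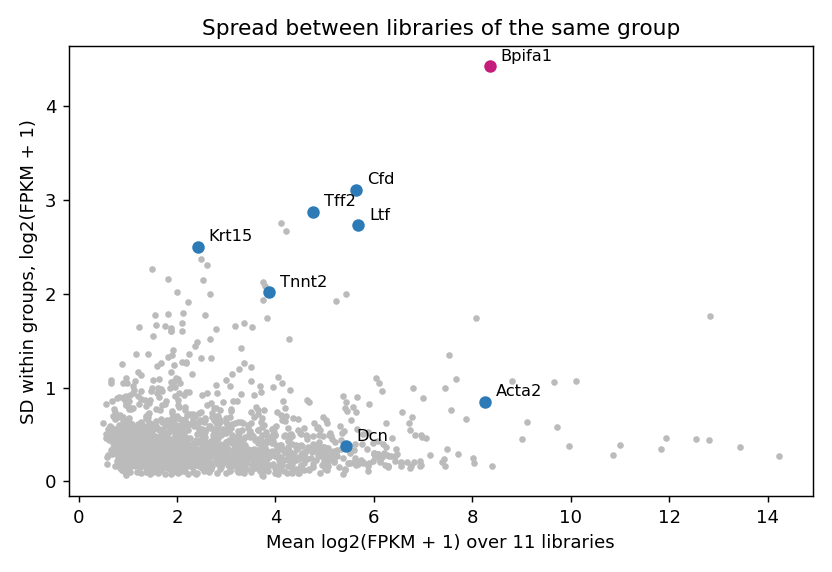
SD within groups against mean level for the 1659 genes, both on the log2(FPKM + 1) scale, 1 point per gene over 11 libraries, with 7 genes of the text named in blue and Bpifa1 in magenta. Bpifa1 stands highest at 4.42, above Cfd at 3.11.

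Differences between groups are log2 differences of means on the log2(FPKM + 1) scale, from 1 limma fit of all genes in which HFD 1 and HFD 3 stand for HFD. Against WT, the Bpifa1 log2 difference was -4.18 (SE 3.11) in HSAPN, -3.06 (SE 3.11) in HAPN and -3.20 (SE 3.48) in HFD. All 3 values were negative, and these comparisons share the WT libraries. Against HFD, it was -0.98 (SE 3.48) in HSAPN and 0.14 (SE 3.48) in HAPN. For HSAPN against HAPN it was -1.12 (SE 3.11). The SE exceeded the size of the difference in every comparison except HSAPN against WT. The median log2 difference of all 1659 genes was -0.12 for HSAPN against WT, -0.17 for HAPN against WT, 0.07 for HFD against WT, -0.18 for HSAPN against HFD, -0.24 for HAPN against HFD and 0.03 for HSAPN against HAPN.

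Bpifa1, the 1 measured gene of the rule, passed an adjusted p of 0.05 in limma in 0 of the 6 comparisons, and its unadjusted p was under 0.05 in 0 of them. The share of all genes that passed was 0% for HSAPN against WT, 0% for HAPN against WT, 0% for HFD against WT, 0% for HSAPN against HFD, 0.181% for HAPN against HFD and 0.121% for HSAPN against HAPN. At an unadjusted p under 0.05, limma gave 360 genes for HSAPN against WT, 368 for HAPN against WT, 189 for HFD against WT, 67 for HSAPN against HFD, 143 for HAPN against HFD and 130 for HSAPN against HAPN. The Bpifa1 levels of the groups overlapped in all 6 comparisons. Groups did not overlap in 29.4% of genes for HSAPN against WT, 27.5% for HAPN against WT, 19.3% for HFD against WT, 19.8% for HSAPN against HFD, 26.3% for HAPN against HFD and 17.5% for HSAPN against HAPN. By size alone, the Bpifa1 difference had rank 1 of 1659 genes for HSAPN against WT, 6 for HAPN against WT and 8 for HFD against WT. Nothing is read from these counts and ranks, since the gene was chosen on its levels.

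Single libraries set the direction of several of these differences. Without HFD 3, the log2 difference of HFD against WT was 1.74, and without HFD 1 it was -8.14. For HAPN against HFD it was -4.80 without HFD 3 and 5.08 without HFD 1. For HSAPN against HFD it was -5.92 without HFD 3 and 3.96 without HFD 1. The sign of each comparison with HFD therefore depended on which HFD library was kept. For HAPN against HFD the sign also turned negative with HAPN 1 or HAPN 2 left out. For HSAPN against HAPN it was -4.08 without HAPN 3 and 0.91 without HAPN 2. For HAPN against WT it was -5.09 without HAPN 2 and -0.10 without HAPN 3. For HSAPN against WT it stayed negative with any 1 library left out, at -5.89 without HSAPN 3 and -2.94 without WT 2. Where HFD is left with 1 library, that library is assumed to vary like those of the other groups.

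**Figure D3:**
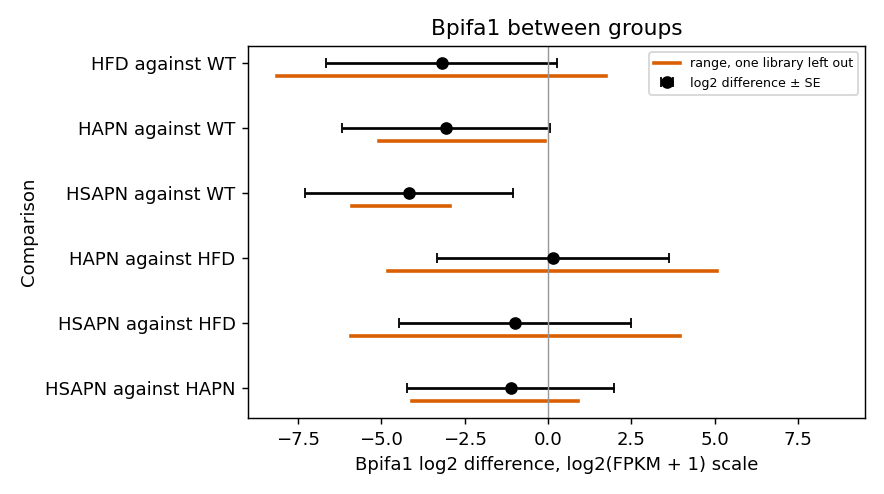
Bpifa1 log2 difference on the log2(FPKM + 1) scale for the 6 comparisons, with its SE as a bar about the point, and in orange the range of the difference when each of the 11 libraries is left out in turn. The orange range crosses 0 in 4 comparisons and stays below 0 for HAPN against WT and HSAPN against WT.

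The genes whose levels ran most like Bpifa1 included genes known from heart muscle, fat and mucosal epithelium. Likeness was Pearson r of log2(FPKM + 1) over the 11 libraries, given as a description. The 11 libraries share the table, its scaling and the dissection of aorta. Of 1658 other genes, 23 had an r of at least 0.9, with a median r of 0.207, a 95th percentile of 0.831 and a lowest r of -0.782. The 12 most like named genes were Tnnt2 (r = 0.979), Tnni3 (0.970), Myl4 (0.958), Ltf (0.955), Adh7 (0.950), Oit1 (0.945), Pgam2 (0.943), Cfd (0.938), Slc2a4 (0.937), Tmc5 (0.936), Eef1a2 (0.919) and Sh3bgr (0.919). Spearman rho ran from 0.873 for Tmc5 to 0.982 for Ltf and Adh7. Around the group means, r ran from 0.931 for Sh3bgr to 0.977 for Tnnt2. HAPN 3 and HFD 3 were the libraries farthest from the median of Bpifa1. Without them, r over 9 libraries ran from 0.866 for Cfd to 0.970 for Tnnt2. The 12 were picked by r over all 11 libraries, so a high r over 9 of them was partly set by the choice. HSAPN 1 and HSAPN 2, also low in Bpifa1, were still among the 9.

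By Pearson r, heart muscle genes led that order, while among the 12 rho was highest for Ltf and Adh7, and 2 of the 12 were among the 12 most like by rho. Tnnt2, the troponin T of heart muscle, was at 5.62, 3.45 and 28.7 FPKM in HSAPN libraries 1, 2 and 3, at 25.2, 26.7 and 1.58 FPKM in HAPN libraries 1, 2 and 3, at 64.6 FPKM in HFD 1 and 0.752 FPKM in HFD 3, and at 11.8, 63.6 and 44.0 FPKM in WT libraries 1, 2 and 3. It was low in the same 4 libraries as Bpifa1, HSAPN 1, HSAPN 2, HAPN 3 and HFD 3, and its groups overlapped. Tnni3, the troponin I of heart muscle, ran from 5.44 FPKM in HAPN 3 to 179 FPKM in HFD 1. Myl4, the atrial myosin light chain, ran from 0.752 FPKM in HFD 3 to 146 FPKM in HFD 1. These are the 3 of 20 heart muscle genes with values, and their mean level had r = 0.976 and rho = 0.945 with Bpifa1 over 11 libraries. Their summed level ran from 15.6 to 155 FPKM in HSAPN, 7.79 to 129 FPKM in HAPN, 7.92 to 389 FPKM in HFD and 48.3 to 310 FPKM in WT. Among the 12, Pgam2, the muscle form of phosphoglycerate mutase, ran from 1.65 FPKM in HFD 3 to 55.2 FPKM in HFD 1.

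Genes known from mucosal surfaces stood beside them. Ltf, lactoferrin, an iron-binding antimicrobial protein of secretions and neutrophil granules, was at 13.2, 8.79 and 79.6 FPKM in HSAPN libraries 1, 2 and 3, at 25.2, 314 and 4.27 FPKM in HAPN libraries 1, 2 and 3, at 340 FPKM in HFD 1 and 5.05 FPKM in HFD 3, and at 29.6, 939 and 222 FPKM in WT libraries 1, 2 and 3. Like Bpifa1, it was highest in WT 2 and lowest in HAPN 3, and its groups overlapped. Adh7, an alcohol dehydrogenase of upper digestive and airway epithelium that oxidises retinol, ran from 2.49 FPKM in HAPN 3 to 47.2 FPKM in WT 2. The slope of log2(FPKM + 1) on that of Bpifa1 was 0.61 for Ltf, 0.45 for Tnnt2 and 0.69 for Cfd, so all 3 covered a narrower range than Bpifa1. Cfd, complement factor D (adipsin) of fat cells, ran from 0.415 FPKM in HAPN 3 to 859 FPKM in HFD 1.

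**Figure D4:**
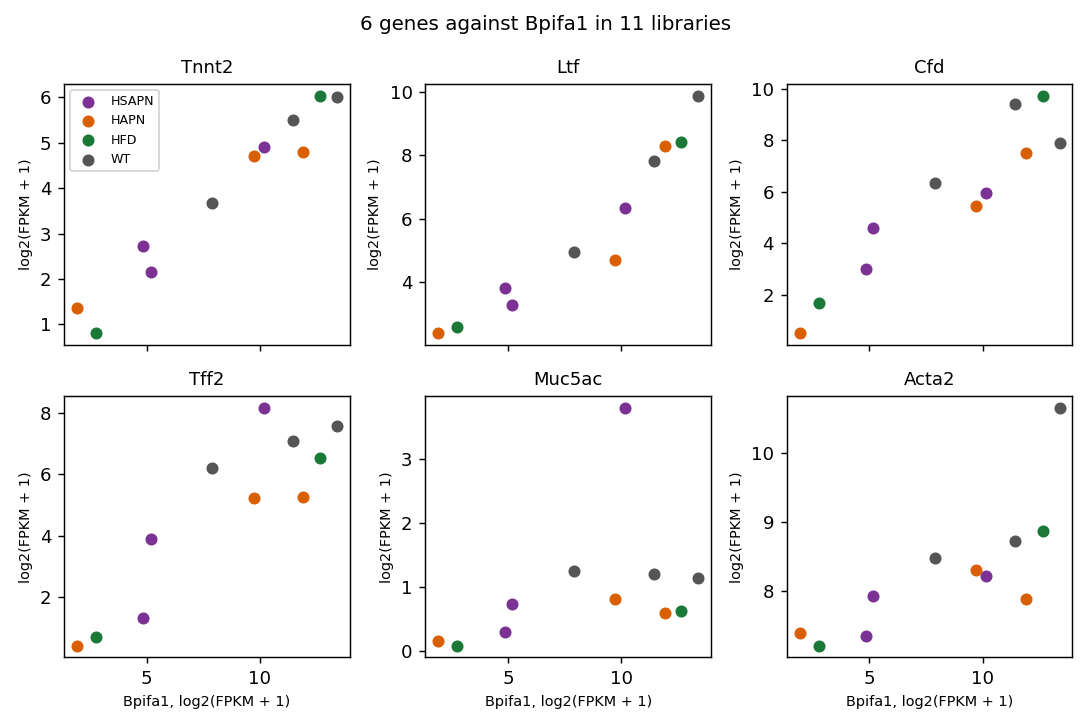
Levels of Tnnt2, Ltf, Cfd, Tff2, Muc5ac and Acta2 against Bpifa1, all as log2(FPKM + 1), 1 point per library (11) coloured by group. Tnnt2, Ltf and Cfd climb along with Bpifa1 (r of 0.979, 0.955 and 0.938), while Muc5ac has a single high library, HSAPN 3.

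Other genes of airway epithelium differed among themselves in how far they went with Bpifa1. Of 26 genes of club and goblet cells outside the rule, 3 had values, Tff2, Muc5ac and Gsto1, and their mean level had r = 0.852 and rho = 0.764 with Bpifa1 over 11 libraries. Tff2, a trefoil peptide secreted with mucus, was at 1.45, 13.9 and 288 FPKM in HSAPN libraries 1, 2 and 3, at 36.9, 37.8 and 0.328 FPKM in HAPN libraries 1, 2 and 3, at 92.3 FPKM in HFD 1 and 0.618 FPKM in HFD 3, and at 73.6, 192 and 136 FPKM in WT libraries 1, 2 and 3. The values in HAPN 3 and HFD 3 came from 3 and 6 reads, and the highest library was HSAPN 3, not WT 2. All 3 WT libraries stood above all 3 HAPN libraries, and the groups of each other pair overlapped. For HAPN against WT, 27.5% of all tested genes did not overlap. The r of Tff2 with Bpifa1 was 0.895 and its rho 0.836.

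Muc5ac, a gel-forming mucin of goblet cells, was at 0.226, 0.673 and 12.96 FPKM in HSAPN libraries 1, 2 and 3, at 0.757, 0.517 and 0.119 FPKM in HAPN libraries 1, 2 and 3, at 0.538 FPKM in HFD 1 and 0.0615 FPKM in HFD 3, and at 1.37, 1.22 and 1.31 FPKM in WT libraries 1, 2 and 3. It stood apart in HSAPN 3, where Tff2 was also highest and Bpifa1 was 5 in the order of 11, and its r with Bpifa1 was 0.405. The 3 WT libraries, at 1.22 to 1.37 FPKM, also stood above all HAPN and HFD libraries. Of all tested genes, 27.5% did not overlap for HAPN against WT and 19.3% for HFD against WT. Gsto1, a glutathione transferase of many tissues, ran from 66.1 FPKM in HAPN 3 to 811 FPKM in WT 2 (r = 0.863). The FPKM of Bpifa1 over that of Tff2 was 2.54 in HSAPN 2, 3.24 in WT 1 and 3.99 in HSAPN 3, but 55.8 in WT 2, 69.8 in HFD 1 and 102 in HAPN 2. Over Ltf it ran from 0.657 in HAPN 3 to 33.3 in HAPN 1, and over Muc5ac from 23.7 to 11970. Bpifa1 thus kept no fixed ratio to any of the 3.

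Among antimicrobial genes of the airway, 5 of 20 had values. Beside Ltf, Pglyrp1, a peptidoglycan recognition protein, ran with Bpifa1 at r = 0.811 over 9.23 to 57.4 FPKM. Lcn2, which binds bacterial siderophores, did not go with it (r = -0.147) and was highest in HSAPN 2 at 87.7 FPKM and HSAPN 3 at 83.1 FPKM. Camp, the cathelicidin of neutrophils and epithelium, had an r of -0.006 and was highest in HSAPN 1 at 8.59 FPKM. Dmbt1, a mucosal scavenger protein, reached 3.41 FPKM in HFD 1 and was below 1 FPKM in every other library.

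Few markers of other epithelial cells had values, and a missing value says nothing of a gene's level. Krt15, a keratin of basal epithelial cells, was at 0.320, 0.323 and 7.30 FPKM in HSAPN libraries 1, 2 and 3, at 0.593, 14.96 and 0.0722 FPKM in HAPN libraries 1, 2 and 3, at 31.6 FPKM in HFD 1 and 0.408 FPKM in HFD 3, and at 0.905, 151 and 18.7 FPKM in WT libraries 1, 2 and 3. It was highest in WT 2 and HFD 1, the libraries highest in Bpifa1, with overlapping groups, an r of 0.863 and a rho of 0.955. Tekt2, a tektin of ciliary axonemes and the 1 of 65 ciliated cell genes with values, ran over 3.66 to 20.9 FPKM with an r of -0.069. Rab25, an epithelial GTPase and the 1 of 28 general epithelial genes with values, ran over 11.6 to 33.5 FPKM with an r of 0.512. Bpifa5, the 1 of 14 other BPI fold genes with values, was at 0 in 10 libraries and had 1 read in HAPN 3. None of the 14 other secretoglobins and none of 22 alveolar genes was analysed here.

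Across the club and goblet, antimicrobial, ciliated, general and basal epithelial lists, 11 genes had values and 10 were tested. Of these 10, limma called 0 in each of the 6 comparisons, beside the shares of all genes given above. An unadjusted p under 0.05 was reached by Camp, Lcn2 and Tekt2 for HSAPN against WT, by Camp for HFD against WT and by Camp for HSAPN against HAPN. Of all tested genes, 21.7% reached it for HSAPN against WT, 11.4% for HFD against WT and 7.84% for HSAPN against HAPN. The median log2 difference of the 3 club and goblet genes was -1.52 for HSAPN against WT, -1.50 for HAPN against WT, -1.30 for HFD against WT, 0.84 for HSAPN against HFD, 0.03 for HAPN against HFD and 0.81 for HSAPN against HAPN. Their summed level ran from 81.8 to 619 FPKM in HSAPN, 66.5 to 223 FPKM in HAPN, 91.5 to 328 FPKM in HFD and 287 to 1005 FPKM in WT. Gsto1, a gene of many tissues, was at 66.1 FPKM in HAPN 3 and 90.8 FPKM in HFD 3. The lowest sums in HAPN and HFD were thus almost all Gsto1 and show little of Tff2 or Muc5ac. In bulk tissue, fewer cells of a type and less RNA per cell cannot be told apart.

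**Figure D5:**
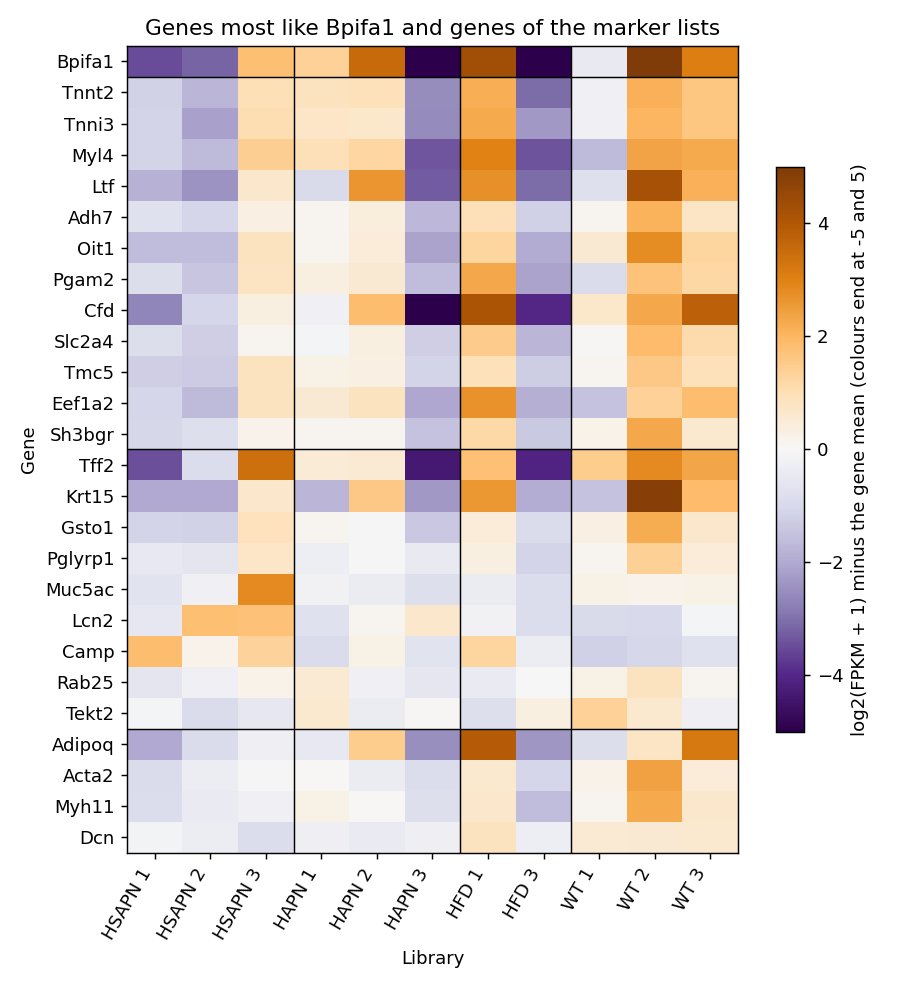
Each gene's log2(FPKM + 1) minus its mean over the 11 libraries (orange above, purple below, colours ending at -5 and 5), for Bpifa1, the 12 genes most like it and genes of the marker lists, by library and group. The rows of Bpifa1, Tnnt2, Ltf and Krt15 are purple in HSAPN 1, HSAPN 2, HAPN 3 and HFD 3 and orange in HFD 1 and WT 2, while Muc5ac is deep orange in HSAPN 3 alone.

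Genes of the vessel wall and of fat ran with Bpifa1 to different degrees. Of 14 smooth muscle genes, 11 had values and their mean level had r = 0.780 and rho = 0.864 with Bpifa1 over 11 libraries. Acta2, smooth muscle actin, was at 162, 241 and 294 FPKM in HSAPN libraries 1, 2 and 3, at 312, 235 and 165 FPKM in HAPN libraries 1, 2 and 3, at 466 FPKM in HFD 1 and 146 FPKM in HFD 3, and at 354, 1607 and 421 FPKM in WT libraries 1, 2 and 3. Acta2 thus marked smooth muscle in every library, was highest in WT 2 and overlapped between HSAPN, HAPN and HFD. Its WT libraries all stood above those of HSAPN and HAPN. Among all tested genes, 29.4% did not overlap for HSAPN against WT and 27.5% for HAPN against WT. The summed smooth muscle level ran from 439 to 735 FPKM in HSAPN, 417 to 790 FPKM in HAPN, 366 to 1241 FPKM in HFD and 1030 to 4058 FPKM in WT. Bpifa1 stood above Acta2 in HSAPN 3, HAPN 1, HAPN 2, HFD 1, WT 2 and WT 3, and the FPKM ratio of Bpifa1 to Acta2 ran from 0.017 in HAPN 3 to 16.4 in HAPN 2.

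Of 15 fat cell genes, 14 had values, with r = 0.837 and rho = 0.936 for their mean. Adipoq, adiponectin, was at 0.533, 2.27 and 4.06 FPKM in HSAPN libraries 1, 2 and 3, at 3.39, 15.8 and 0.0923 FPKM in HAPN libraries 1, 2 and 3, at 92.6 FPKM in HFD 1 and 0.174 FPKM in HFD 3, and at 2.44, 9.44 and 53.8 FPKM in WT libraries 1, 2 and 3. It was highest in HFD 1 and lowest in HAPN 3, with overlapping groups. The summed fat level ran from 83.4 to 188 FPKM in HSAPN, 60.4 to 389 FPKM in HAPN, 58.0 to 1926 FPKM in HFD and 149 to 1205 FPKM in WT. Of 12 adventitial fibroblast genes, 7 had values, with r = 0.502 and rho = 0.345 for their mean, and Dcn, decorin, ran over 22.5 to 76.4 FPKM.

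Lists of organs near the aorta and trachea differed in how far they went with Bpifa1. The 6 of 20 cartilage genes with values had r = 0.139 for their mean, and the 5 of 20 thymus genes r = -0.345. In each of these 2 lists only 2 genes reached 1 FPKM in any library, Cytl1 and Col11a2 for cartilage and Cd8b1 and Cd4 for thymus. The means therefore rest mostly on those genes and say little of the lower ones. The 3 of 15 thyroid genes with values had r = 0.726 and rho = 0.800 for their mean and summed to at most 2.00 FPKM in any library. The salivary amylase gene Amy1 ran over 1.75 to 7.15 FPKM (r = 0.441), and the 2 of 18 skeletal muscle genes with values, Acta1 and Myh1, summed to 6.02 FPKM in HFD 1 and to less than 1 FPKM in every other library. None of 14 endothelial genes was analysed here. Of 47 tested genes of all these lists, limma called 0 in each comparison, with an unadjusted p under 0.05 in 16 (34.0%, against 21.7% of all tested genes) for HSAPN against WT, 12 (25.5% against 22.2%) for HAPN against WT and 3 (6.38% against 11.4%) for HFD against WT. That number was 2 (4.26% against 4.04%) for HSAPN against HFD, 1 (2.13% against 8.62%) for HAPN against HFD and 4 (8.51% against 7.84%) for HSAPN against HAPN. The part of airway, heart, fat or smooth muscle RNA in the Bpifa1 differences was not tested.

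A gene near Bpifa1 on the chromosome, Ahcy, the hydrolase of S-adenosylhomocysteine 910 kb away, ran over 2.89 to 8.05 FPKM, with r = 0.248 and rho = 0.391 to Bpifa1 over 11 libraries. Bpifa5, 13.4 kb away, was at or near 0 as given above.

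Depth differed little between libraries. Read as FPKM, the deposited values imply 15685639 to 17880722 reads per library, of which the table holds 12.1 to 17.6%, so it covers part of the transcriptome.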

How the data were processed

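mRNA libraries of mouse aorta were sequenced; per the labels' protocols RNA was extracted with TRIzol and libraries made with a directional NEB kit. The authors deposited 1 FPKM value per gene symbol and library. featureCounts 1.5.0-p3, DESeq 1.8.3 and GRCm38 are named in the submitters' processing notes with no role; the aligner, annotation release, strand setting and choice of genes are not stated there or in the labels. Files of 3534 rows gave 3532 symbols after a repeated symbol (2 rows) was left out; 4 looked like dates, and 3407 matched 1 gene of GENCODE M21. Reads were recovered from FPKM, exon length and the library total that made low values whole: 95.7 to 97.0% of values of up to 20 reads were whole within 0.1. A TPM scaling would give whole reads too, with other totals.

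The 1659 genes that reached 1 FPKM in 3 or more libraries were fitted with limma-trend on log2(FPKM + 1), which understates changes of low genes, in limma 3.58.1 under R 4.3.3, with 4 group means, 7 residual degrees of freedom and Benjamini-Hochberg adjustment over all tested genes at 0.05. The script was tested on simulated data. Text genes followed a rule: Bpifa1, the 12 genes with the highest r to it (unnamed models, pseudogenes and receptor segments left out), up to 4 genes per marker list by highest FPKM, and Acta2, Myh11, Adipoq and Tnnt2; some are not described. Dmbt1 and Ahcy, outside the rule, were named after their values were seen. The results of some genes near Bpifa1 are not reported here. The members and lists were chosen with earlier results of these data known. Alternatives were other filters, a pseudocount of 0.1, median-ratio scaling, a replicate block and each library left out. Promoters are from RefSeq (GRCm38.p6); 9 of the 12 like genes had an entry.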

Additional observations from a re-analysis of the deposited data

How the results depend on the processing

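The count of rule members past the threshold was 0 in all 96 alternatives, 16 in each of 6 comparisons. The Bpifa1 log2 difference kept its sign in 89 of the 96 and was reversed in 7. With the replicate number as a block, it was -0.69 for HAPN against HFD. With each library left out in turn, it spanned -5.89 to -2.94 for HSAPN against WT, -5.09 to -0.10 for HAPN against WT, -8.14 to 1.74 for HFD against WT, -5.92 to 3.96 for HSAPN against HFD, -4.80 to 5.08 for HAPN against HFD and -4.08 to 0.91 for HSAPN against HAPN.

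The counts of all genes past the threshold were small and moved. With no filter they were 1 for HAPN against WT, 2 for HFD against WT, 2 for HSAPN against HFD, 5 for HAPN against HFD and 1 for HSAPN against HAPN. With the filter raised to 6 libraries the count for HAPN against HFD was 0. With median-ratio scaling it was 17 for HAPN against WT and 5 for HAPN against HFD. With the replicate block it was 1 for HAPN against WT and 0 for HAPN against HFD. With each library left out, the count spanned 0 to 164 for HSAPN against WT, 0 to 177 for HAPN against WT and 0 to 27 for HFD against WT, each highest without WT 3, and 0 to 3 for HSAPN against HFD, 0 to 6 for HAPN against HFD and 0 to 3 for HSAPN against HAPN. The cause was not tested.

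The replicate numbers showed no steady pairing of the samples. Of 15 pairs of same-numbered libraries, 4 had a correlation of deviations over 0.1, in a range of -0.592 to 0.499. With so few libraries per group, these values cannot exclude a pairing. Of the 12 genes most like Bpifa1, 9 to 12 stayed among the 12 with a library left out, 10 with median-ratio scaling, 9 around group means, 8 with a pseudocount of 0.1 and 2 by Spearman rho. Depth limits Bpifa1 little, as its lowest library holds 68 reads; the spread between libraries sets the SE.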
